A study of Mus musculus with 6 samples.

Results

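The 10 genes described here encode the core transcription factors of the heart muscle cell: the zinc-finger factors Gata4 and Gata6, the homeobox factor Nkx2-5, the T-box factor Tbx20, the helix-loop-helix factor Hand2, the MADS-box factors Mef2a, Mef2c, Mef2d and Srf, and Myocd, which encodes myocardin, the coactivator of SRF. Their values were taken from the array probe sets to which the platform's annotation gives exactly 1 gene symbol equal to one of the 10. This found 30 of 45037 probe sets and all 10 genes, with 1 probe set for Nkx2-5, 2 each for Gata4, Srf and Myocd, 3 each for Gata6, Tbx20, Hand2 and Mef2d, 5 for Mef2c and 6 for Mef2a. A probe set is a group of short probes for one transcript, and a gene can have several.

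The arrays measured RNA from the ventricular apex of mouse hearts, in a study of a transgene for PR-M, a human progesterone receptor form found in mitochondria. The labels name a PR-M expressing group and a PR-M non-expressing group of 3 arrays each, called replicates 1 to 3 here in the order of their records. Both groups had received progesterone, 2.5 mg in oil under the skin, for 19 to 21 days, so the hormone is shared and no untreated heart is in the comparison. The sources used here give neither the strain, sex and age, nor the promoter of the transgene, nor how expression was established, nor whether the non-expressing mice carry the transgene. They also do not say that each array is a separate animal, so the p-values rest on a spread between samples that may be technical. In whole tissue, fewer cells of a type and less RNA per cell cannot be told apart.

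In the heart these factors act together. GATA4 and GATA6 bind GATA motifs, NKX2-5 and TBX20 sit beside them at many promoters of muscle genes, and HAND2 is needed for the growth of the right ventricle in the mouse embryo. The MEF2 proteins bind an A/T-rich site and are held in check by class IIa histone deacetylases until calcium or stress signals release them. SRF binds the CArG box of contractile and immediate early genes, and myocardin, which does not bind DNA by itself, turns SRF towards muscle genes.

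None of the 30 probe sets passed the test for a difference between the groups. Each was tested with limma over all 45037 probe sets, with p-values adjusted after Benjamini and Hochberg and a threshold of 0.05. The adjusted p of the 30 lay between 0.241 and 0.949, while 0.0133% of all probe sets passed. With 1 probe set for each gene, that with the highest mean over the 6 arrays, 0 of the 10 genes passed, where 0.022% of 18193 genes did. At an unadjusted p under 0.05 there were 7 of the 30 probe sets against 12.2% of all: 4 of them were higher in the expressing group (5.86% of all) and 3 lower (6.37%). In the fit over genes there were 4 of the 10, Gata6, Myocd, Hand2 and Tbx20, against 12.6% of all genes, and all 4 were higher (5.27%). The groups did not overlap in 8 of the 30 probe sets against 18.6% of all, of which 5 were higher (8.27%) and 3 lower (10.3%). Over genes they did not overlap in 3 of the 10, all higher, against 19.0% of all genes and 8.16% in that direction. All differences were small. On the log2 scale, as expressing minus non-expressing, they ran from -0.34 for a Mef2c probe set to 0.37 for a Hand2 probe set, which is 1.26-fold lower and 1.29-fold higher, respectively. The lowest and highest bounds of the 95% intervals were -0.68 and 0.69, both for Hand2 probe sets, so a difference of more than 1.61-fold in either direction lay outside the interval of each probe set.

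**Figure D1:**
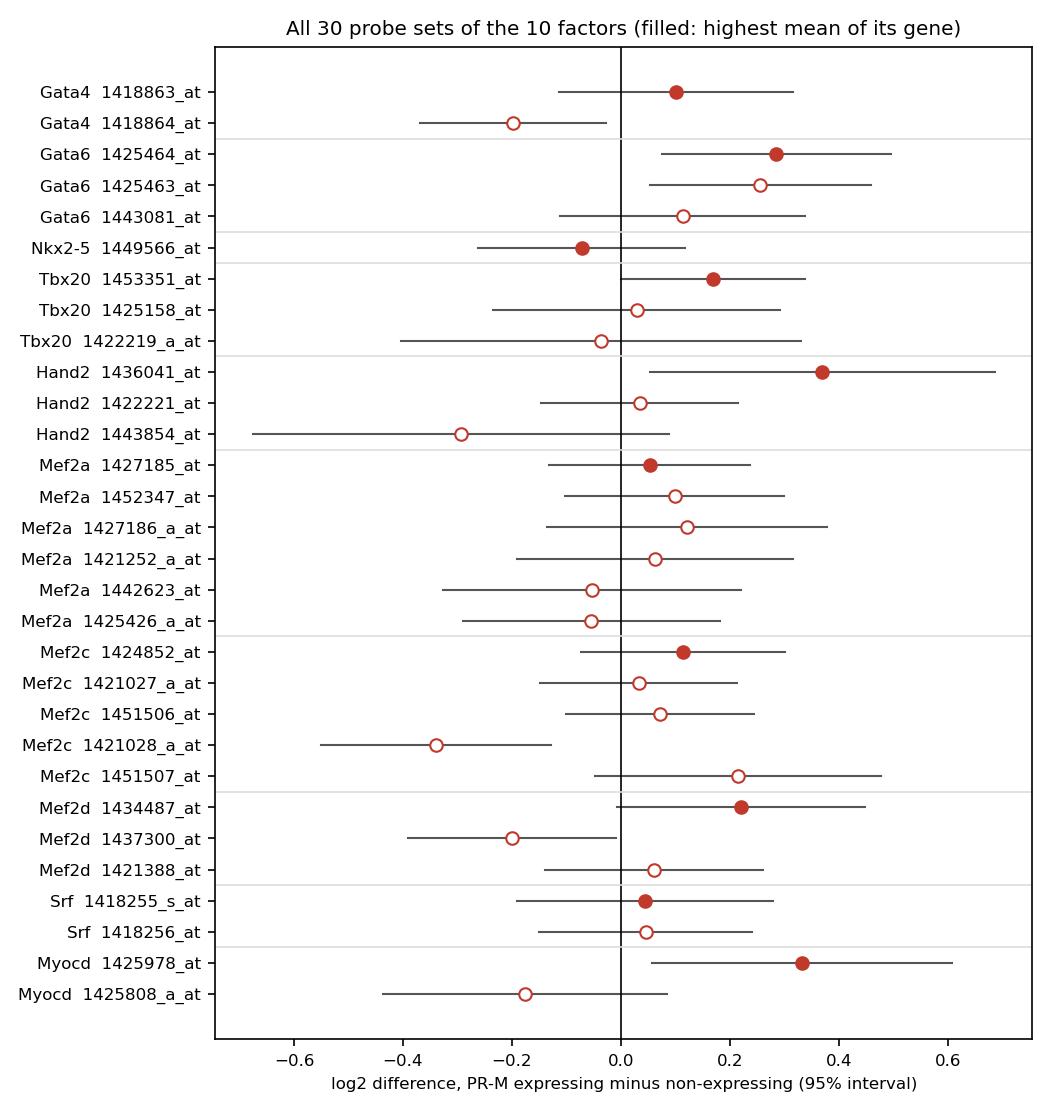
Log2 difference between PR-M expressing and non-expressing arrays (horizontal axis, 3 arrays in each group) for all 30 probe sets of the 10 factors, with 95% intervals from limma; filled points mark the probe set with the highest mean of its gene. The filled points lie right of 0 for 9 of 10 genes, whereas the open points fall on both sides, from -0.34 to 0.26.

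Among the 30 probe sets 21 were higher in the expressing group, where 44.4% of all probe sets were. In the probe set with the highest mean, 9 of the 10 genes had a higher mean in the expressing group and Nkx2-5 a lower one, where 44.0% of all genes were higher. Srf, one of the 9, changed sign with array weights and when some single arrays were left out. Among genes whose mean was at least 9, a range that holds all of these probe sets except that of Myocd, 53.2% were higher. The median difference of the 10 genes was 0.14, against -0.02 for all genes. The other 20 probe sets of the same genes were more mixed: 12 were higher and 8 were lower, with a median of 0.03. Over all probe sets 44.4% were higher, with a median of -0.02. When all probe sets of a gene were averaged the median of the 10 genes dropped to 0.04 and Gata4 changed sign, to -0.05.

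Gata6, which encodes the GATA factor of heart, gut and lung, had a higher mean in the expressing group in all 3 of its probe sets. The probe set 1425464_at read 9.86, 9.89 and 10.12 with PR-M and 9.69, 9.61 and 9.71 without it. Every expressing array lay above every non-expressing one, and expressing replicate 3 was the highest. The difference was 0.29 (SE 0.09, limma adjusted p 0.296), a 1.22-fold higher value. The second probe set, 1425463_at, read 7.85, 7.74 and 7.98 against 7.53, 7.64 and 7.64, again without overlap, and differed by 0.26 (SE 0.09, adjusted p 0.319). The third, 1443081_at, differed by 0.11 (SE 0.10) and overlapped. Without expressing replicate 3 the first difference was 0.20 (adjusted p 0.460).

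Gata4, the GATA factor most studied in heart growth and hypertrophy, gave opposite signs in its 2 probe sets. The probe set 1418863_at read 9.18, 9.14 and 9.02 with PR-M and 9.06, 8.86 and 9.12 without it. The groups overlapped, and the difference was 0.10 (SE 0.09, adjusted p 0.698), or 0.02 with non-expressing replicate 2 left out. The probe set 1418864_at, whose values lay under the array medians of 5.78 to 5.79, read 5.45, 5.53 and 5.49 against 5.73, 5.63 and 5.71. Here every expressing array was below every non-expressing one, and the difference was -0.20 (SE 0.08, adjusted p 0.349).

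Nkx2-5, the homeobox gene that marks heart muscle from its first precursors onwards, had nearly the same level in both groups. Its single probe set, 1449566_at, read 9.31, 9.18 and 9.39 with PR-M and 9.41, 9.33 and 9.36 without it. The difference was -0.07 (SE 0.08, adjusted p 0.763), with a 95% interval from -0.26 to 0.12.

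Tbx20, a T-box gene required to keep adult heart muscle working in mice, had a small difference with little spread. The probe set 1453351_at read 10.80, 10.76 and 10.75 with PR-M and 10.66, 10.55 and 10.59 without it. The groups did not overlap, and the difference was 0.17 (SE 0.07, adjusted p 0.410). The other 2 probe sets, with means of 6.15 and 4.50, differed by 0.03 and -0.04 and overlapped. Each of those 2 changed sign when some single arrays were left out.

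Hand2 had the largest difference of the 30 and also a wide spread. The probe set 1436041_at read 9.82, 9.71 and 10.16 with PR-M and 9.72, 9.33 and 9.53 without it. Expressing replicate 2 and non-expressing replicate 1 met at about the same value, so the groups overlapped. The difference was 0.37 (SE 0.14, adjusted p 0.346), and leaving out expressing replicate 3 gave 0.24, leaving out non-expressing replicate 1 gave 0.47. The probe set 1422221_at held between 7.04 and 7.20 on all 6 arrays, a difference of 0.03 (SE 0.08). The third, 1443854_at, under the array medians, differed by -0.29 (SE 0.17, adjusted p 0.509), with non-expressing replicate 1 at 5.27 and the other 5 arrays between 4.44 and 4.75. Without that array the difference was -0.09.

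**Figure D2:**
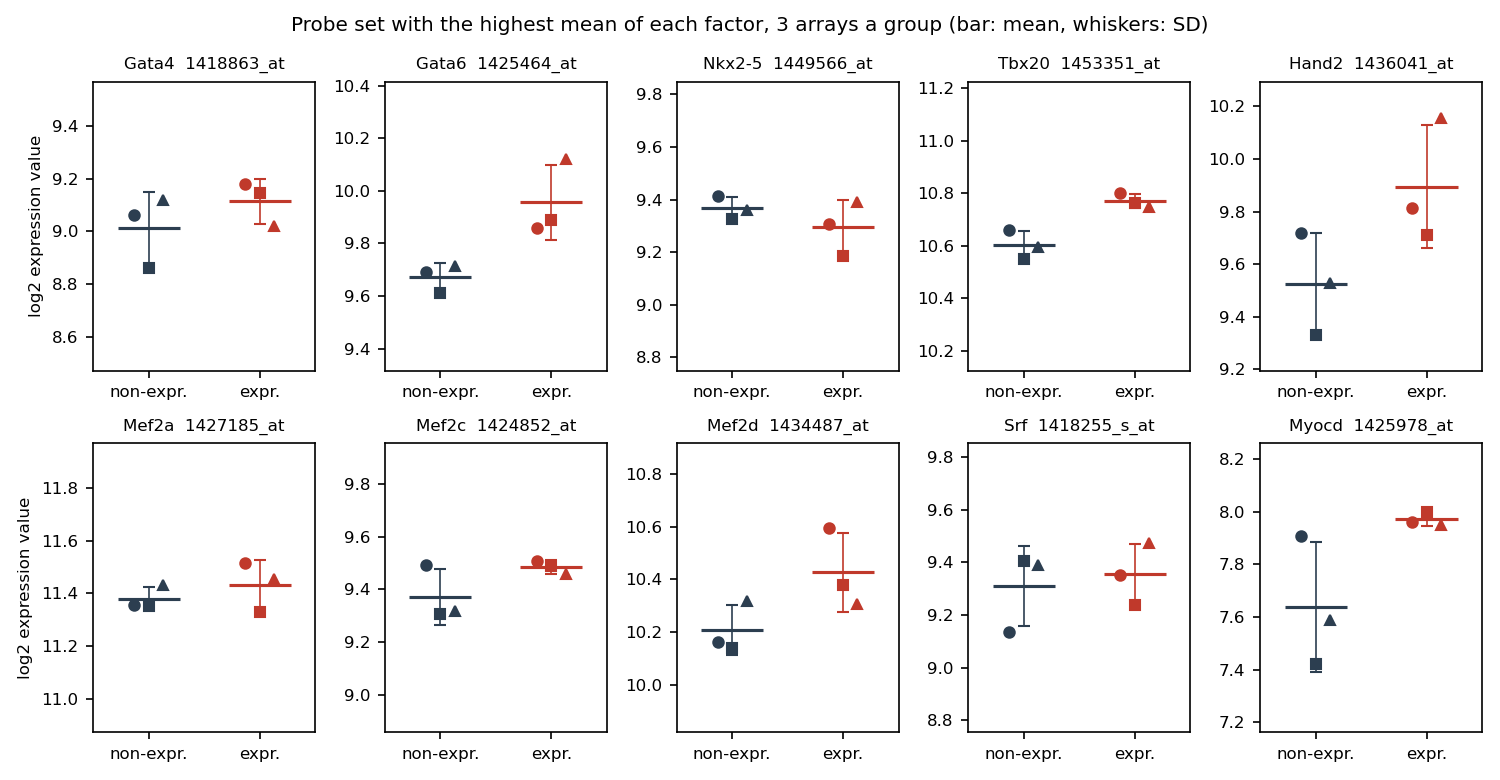
Log2 expression value (vertical axis, the same span of 1.1 in every panel) of the probe set with the highest mean of each factor, with 1 symbol shape for each replicate number, the group mean as a bar and the SD as whiskers (n = 3 each). The groups do not overlap for Gata6, Tbx20 and Myocd and overlap for the other 7 genes.

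Mef2a had small differences, none of which passed, in its 6 probe sets. This gene encodes the MEF2 protein that predominates in the adult mouse heart. The probe set 1427185_at read 11.51, 11.33 and 11.46 with PR-M and 11.36, 11.35 and 11.43 without it, a difference of 0.05 (SE 0.08, adjusted p 0.827). The other 5 differed by -0.05 to 0.12, and the groups overlapped in all 6. In 5 of the 6 probe sets expressing replicate 1 was the highest of the arrays.

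Mef2c, needed for the looping heart of the embryo, held the lowest p of the 30 in a probe set that ran against the others. The probe set 1421028_a_at read 7.16, 7.30 and 7.31 with PR-M and 7.68, 7.45 and 7.65 without it. All expressing arrays lay below all non-expressing ones, with a difference of -0.34 (SE 0.09, unadjusted p 0.00574, adjusted p 0.241). The probe set with the highest mean, 1424852_at, read 9.51, 9.49 and 9.46 against 9.49, 9.30 and 9.32 and differed by 0.11 (SE 0.08, adjusted p 0.602). Non-expressing replicate 1 was as high as the expressing arrays in it. Of the other 3, the probe sets 1421027_a_at and 1451506_at differed by 0.03 and 0.07 with overlap. The third, 1451507_at, did not overlap and differed by 0.22 (SE 0.12), mostly from expressing replicate 1, without which it was 0.09.

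Mef2d, which transmits stress signals to fetal heart genes in mice, also had probe sets of opposite sign. The probe set 1434487_at read 10.60, 10.38 and 10.30 with PR-M and 10.16, 10.14 and 10.32 without it. One non-expressing array, replicate 3, lay just above the lowest expressing one, and the difference was 0.22 (SE 0.10, adjusted p 0.420), or 0.14 with expressing replicate 1 left out. The probe set 1437300_at read 8.92, 8.88 and 9.09 against 9.20, 9.16 and 9.13, without overlap and with a difference of -0.20 (SE 0.08, adjusted p 0.392). The third probe set differed by 0.06 (SE 0.09).

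Srf had close means in both of its probe sets. The probe set 1418255_s_at read 9.35, 9.24 and 9.47 with PR-M and 9.13, 9.40 and 9.39 without it, and 1418256_at read 8.91, 8.95 and 9.03 against 9.00, 8.96 and 8.79. The groups overlapped in both, with expressing replicate 3 the highest array in each. Their differences were 0.04 (SE 0.10, adjusted p 0.892) and 0.05 (SE 0.09, adjusted p 0.866), with 95% intervals from -0.19 to 0.28 and from -0.15 to 0.24.

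Myocd, whose product works through SRF, had differences of opposite sign in its 2 probe sets, neither of which passed. The probe set 1425978_at was tight in the expressing arrays, at 7.96, 8.00 and 7.95, and spread in the non-expressing ones, at 7.91, 7.42 and 7.59. The groups did not overlap, but non-expressing replicate 1 came close to the expressing arrays. The difference was 0.33 (SE 0.12, adjusted p 0.332), a 1.26-fold higher value. It was 0.47 without non-expressing replicate 1, where its adjusted p of 0.114 was the lowest of any of the 30 probe sets under any alternative, and 0.22 without non-expressing replicate 2. The probe set 1425808_a_at read 6.36, 6.39 and 6.45 against 6.79, 6.34 and 6.60 and differed by -0.18 (SE 0.11, adjusted p 0.559). Leaving out non-expressing replicate 1 gave -0.07, and leaving out non-expressing replicate 2 gave -0.29.

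Probe sets of Gata4, Hand2, Mef2c, Mef2d and Myocd thus pointed in opposite directions within a gene, as did those of Tbx20 and Mef2a with values of -0.04 to -0.05 on the lower side. To test this, the difference between each further probe set and the highest-mean probe set of its gene was formed on each array. These were compared between the groups with limma over all 16752 such pairs, a test chosen after the values had been seen. The pairs named next were picked for opposite signs, so the direction of their shifts follows from that choice. For Myocd the pair difference was -1.60, -1.61 and -1.50 with PR-M and -1.12, -1.08 and -0.99 in the non-expressing arrays. The 2 groups were well apart, with a shift of -0.51 (SE 0.09, adjusted p 0.116). The shift was -0.45 for the Mef2c probe set 1421028_a_at (SE 0.10, adjusted p 0.180), -0.66 for the Hand2 probe set 1443854_at (SE 0.15, adjusted p 0.190), -0.42 for the Mef2d probe set 1437300_at (SE 0.13, adjusted p 0.279) and -0.30 for the 2 Gata4 probe sets (SE 0.10, adjusted p 0.291). None of the 20 pairs of the 10 genes passed, where 0.0716% of all pairs did. At an unadjusted p under 0.05 there were 5 of 20 against 12.6% of all pairs, the groups did not overlap in 7 of 20 against 19.1%, and opposite signs occurred in 8 of 20 against 41.3%. Which transcript forms these probe sets read is not given in the sources used here.

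**Figure D3:**
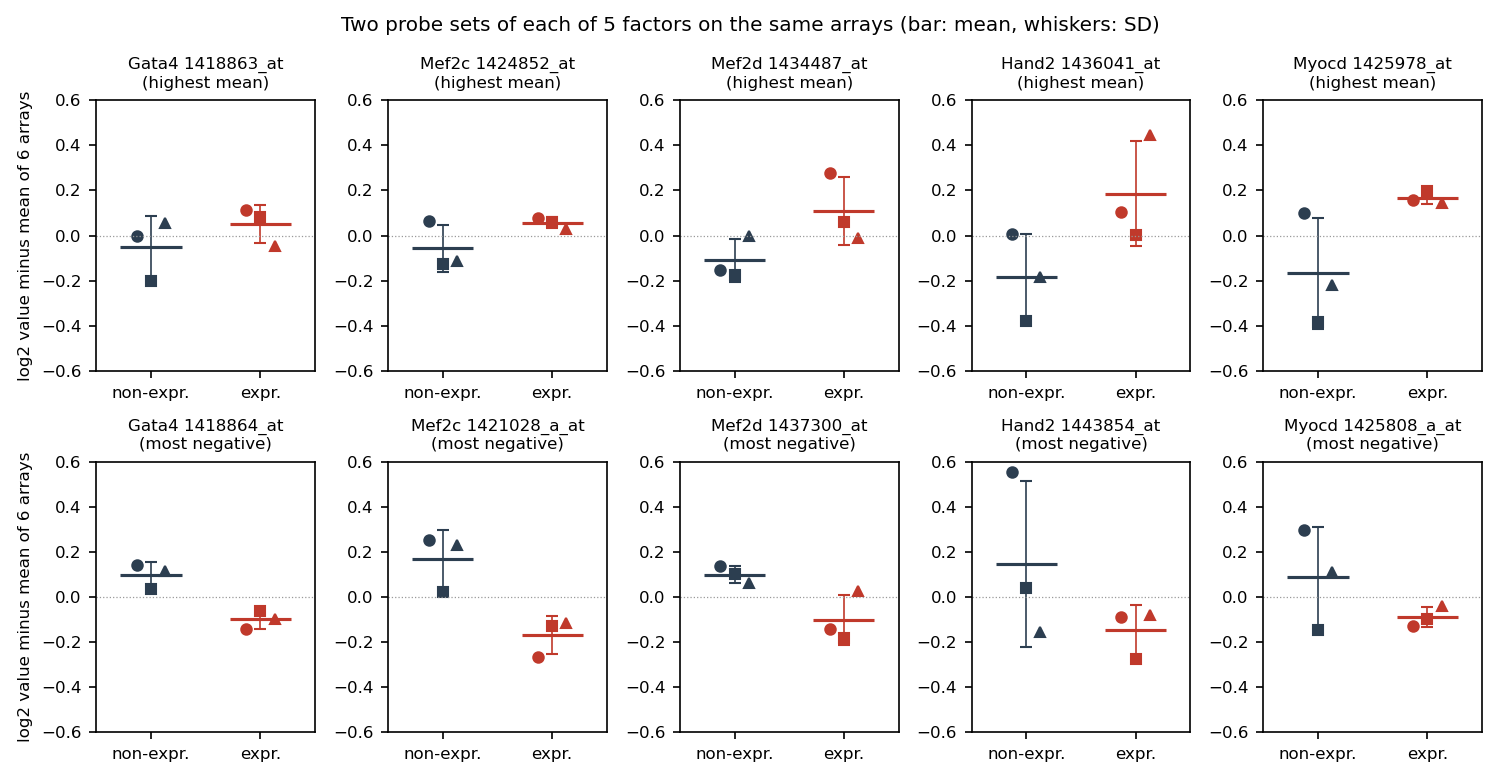
For 5 factors, the probe set with the highest mean (upper row) and the most negative probe set of the same gene (lower row) on the same 6 arrays, as log2 value minus the mean of the 6 arrays, with group means as bars and SD as whiskers (n = 3 each). The 5 factors were picked for probe sets of opposite sign, so the direction of each row follows from that choice. The upper row has higher expressing means and the lower row lower ones, for Myocd by 0.33 and -0.18.

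Among the 6 arrays, some of the factors varied together. Of the 45 pairs among the highest-mean probe sets, 35 had a Pearson correlation above 0 and 3 one above 0.9: Mef2c with Myocd at 0.96, Tbx20 with Myocd at 0.93 and Gata6 with Hand2 at 0.93. These pairs share the arrays, the groups and the scaling, so the values only describe this set of 6. The shares among pairs of all genes were not counted. In the highest-mean probe sets, non-expressing replicate 1 stood above the mean of non-expressing replicates 2 and 3 by 0.40 for Myocd, 0.29 for Hand2, 0.18 for Mef2c and 0.09 for Tbx20. For Srf its value minus that mean was -0.26. On that array some other probe sets had the opposite sign, at 0.12 for 1418256_at of Srf and -0.15 for 1422219_a_at of Tbx20. The sample titles give that array a prefix of its own, and what the prefix stands for is not stated; non-expressing replicates 2 and 3 share another, and the 3 expressing arrays share one of their own. With the prefix as a random block the differences were 0.32 for Myocd, 0.36 for Hand2 and 0.28 for Gata6, and the lowest adjusted p of the 30 was 0.419 (limma). No prefix occurs in both groups, so a block of this kind cannot part the prefix from the group. In Gata6 and Hand2 the highest array was expressing replicate 3, at 10.12 and 10.16.

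The probe set most like each factor over the 6 arrays, among those of other genes with a mean of at least 6, reached a Pearson correlation of 0.982 to 0.996. It belonged to Cryl1 for Gata4, Nrf1 for Gata6, Nr2f6 for Nkx2-5, Prpf19 for Tbx20, Csf2ra for Hand2, Retsat for Mef2a, Efcab2 for Mef2c, Nadk2 for Mef2d, Ell for Srf and Rab28 for Myocd. Between 87 probe sets (Mef2a) and 524 (Tbx20) exceeded 0.9, and between 21 (Gata4) and 154 (Tbx20) exceeded 0.95, of 18319 to 18323 searched for each factor. Each named probe set is the highest of that many over only 6 arrays, so these values describe the arrays and were not tested.

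Of 27 further transcription factors of the developing and adult heart, 26 were measured. None passed, with 12 higher, 14 lower and a median of 0.00. Tbx3, a T-box repressor of the conduction system, read 7.78, 7.57 and 7.88 with PR-M and 7.33, 7.33 and 7.25 without it. It did not overlap and differed by 0.44 (SE 0.09, limma over genes, adjusted p 0.184), but by 0.13 (adjusted p 0.561) with all its probe sets averaged and by 0.22 with the _x_at and _s_at ones left out. Tbx18, a T-box gene of the epicardium and sinus node, ran the other way, at 7.47, 7.22 and 7.10 against 7.57, 7.77 and 7.85, with a difference of -0.47 (SE 0.12, adjusted p 0.226). Tbx5, a partner of NKX2-5 and GATA4 that was named after its values were seen, differed by 0.27 (SE 0.10, adjusted p 0.346) without overlap, and by 0.17 without non-expressing replicate 1.

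Of 32 cofactors and upstream regulators, 31 were measured and none passed, with 22 higher, 9 lower and a median of 0.03. Gsk3b, a kinase that phosphorylates GATA4, differed by 0.26 (SE 0.09, adjusted p 0.316), and by 0.07 (adjusted p 0.689) with its probe sets averaged. Zfpm1, which encodes the GATA cofactor FOG1, differed by -0.19 (SE 0.07, adjusted p 0.346). Neither overlapped in the highest-mean probe set. The class IIa histone deacetylases, named after their values were seen, differed by 0.36 for Hdac4, 0.15 for Hdac5, 0.13 for Hdac7 and -0.11 for Hdac9, with adjusted p from 0.408 to 0.756. Hdac4 differed by 0.23 with its probe sets averaged and by 0.21 without non-expressing replicate 2, and Hdac7 by 0.07 without expressing replicate 1.

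Promoter sequence of the factors and of some of their target genes was looked up in the RefSeq table of the build GRCm38.p6, which matched 7 of the 10 factors and gave several starts for Mef2c. The 250 bases before each start were searched on both strands for the GATA motif (AGATAA or AGATAG or TGATAA or TGATAG), the NKX2-5 core (TNAAGTG), a T-box motif (AGGTGTGA), a HAND E-box (CATCTG), the CArG box and the MEF2 site, which could overlap. Counted by gene over any of its starts, the GATA motif occurred in 29.7% of all 27025 genes with a promoter in the table, the NKX2-5 core in 11.4%, the T-box motif in 1.30%, the HAND E-box in 16.3%, the CArG box in 1.62% and the MEF2 site in 3.42%. Over the 32851 single promoters the shares were 26.5%, 10.1%, 1.12%, 14.4%, 1.47% and 2.92% in the same order. Of the 7 factors with a promoter, 1 held a GATA motif, 1 a CArG box, 2 a HAND E-box (Hand2 and one start of Mef2c) and none any of the other 3. The promoter of Myl4, a target gene that was also searched, held no match. The promoters below are shown because they carry such matches, 2 from factors and 4 from target genes described next, each 5′ to 3′ on the gene's strand with the matches in capitals.
Srf, chr17:46556163-46556412, minus strand: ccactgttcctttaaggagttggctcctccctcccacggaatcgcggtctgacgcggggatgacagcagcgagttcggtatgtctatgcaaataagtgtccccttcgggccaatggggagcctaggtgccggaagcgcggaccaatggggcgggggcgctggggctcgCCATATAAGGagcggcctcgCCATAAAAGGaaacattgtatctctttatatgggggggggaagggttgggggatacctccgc
Hand2, chr8:57320733-57320982, plus strand: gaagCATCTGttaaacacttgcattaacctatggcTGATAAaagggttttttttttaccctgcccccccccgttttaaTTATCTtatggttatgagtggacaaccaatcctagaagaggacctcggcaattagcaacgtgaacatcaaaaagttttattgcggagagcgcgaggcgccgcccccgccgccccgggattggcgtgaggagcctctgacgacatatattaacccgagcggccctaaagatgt
Acta1, chr8:123894776-123895025, minus strand: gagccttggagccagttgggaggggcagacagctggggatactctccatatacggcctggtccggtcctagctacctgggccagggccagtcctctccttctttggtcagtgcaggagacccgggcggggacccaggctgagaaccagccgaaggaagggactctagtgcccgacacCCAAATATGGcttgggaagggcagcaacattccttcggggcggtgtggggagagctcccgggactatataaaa
Nppb, chr4:147985650-147985899, plus strand: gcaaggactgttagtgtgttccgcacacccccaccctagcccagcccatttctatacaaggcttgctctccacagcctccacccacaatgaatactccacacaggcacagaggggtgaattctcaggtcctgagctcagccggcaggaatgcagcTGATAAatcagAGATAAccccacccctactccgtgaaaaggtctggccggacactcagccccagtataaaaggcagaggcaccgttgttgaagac
Nppa, chr4:148000472-148000721, plus strand: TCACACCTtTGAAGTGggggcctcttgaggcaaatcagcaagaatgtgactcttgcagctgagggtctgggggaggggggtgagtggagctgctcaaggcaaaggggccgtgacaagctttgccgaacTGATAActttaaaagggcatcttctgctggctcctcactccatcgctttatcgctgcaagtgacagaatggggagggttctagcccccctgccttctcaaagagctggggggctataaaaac
Myl7, chr11:5898783-5899032, minus strand: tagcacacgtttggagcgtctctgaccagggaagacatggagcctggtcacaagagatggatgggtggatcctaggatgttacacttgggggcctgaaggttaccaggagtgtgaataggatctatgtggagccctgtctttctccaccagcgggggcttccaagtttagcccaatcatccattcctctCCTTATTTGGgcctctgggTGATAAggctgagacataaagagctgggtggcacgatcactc

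Counted back from the annotated start, the Srf promoter held CArG boxes at bases 82 to 73 and 62 to 53, the letters its own product binds, and the level of Srf differed by 0.04. The Hand2 promoter held GATA motifs at 215 to 210 and, on the opposite strand, at 172 to 167, and a HAND E-box at 246 to 241. In the target genes, Acta1 held a CArG box at 73 to 64 and Nppb a pair of GATA motifs at 95 to 90 and 84 to 79. Myl7 held a CArG box at 61 to 52 and a GATA motif at 42 to 37. Nppa held a T-box motif on the opposite strand at 250 to 243, an NKX2-5 core at 241 to 235 and a GATA motif at 122 to 117. These are matches of letters and not measured binding, and the values of the target genes follow.

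Some target genes of the myocyte had far larger differences than the factors, in both directions. Of 32 such genes 30 were measured, 15 were higher and 15 lower, the median was 0.00, and none passed in the fit over genes. Myl7, the atrial regulatory myosin light chain, read 9.22, 10.96 and 9.79 with PR-M and 6.68, 6.26 and 6.66 without it. Its difference was 3.45 (SE 0.38, limma adjusted p 0.0636). Myl4, the atrial essential light chain, differed by 3.60 (SE 0.45, adjusted p 0.0693), while a second, dimmer probe set of Myl4 differed by 0.02. Nppb, the gene of brain natriuretic peptide, named after its values were seen, read 11.14, 11.11 and 11.67 against 13.12, 12.97 and 12.50, a difference of -1.56 (SE 0.20, adjusted p 0.0693). No array of one group reached the other in these 3 genes. With the spread taken from the fit over all probe sets, a choice added after the data were seen, all 3 passed, with adjusted p of 0.0348 for Myl7, 0.0451 for Myl4 and 0.0453 for Nppb. Over the alternatives the adjusted p ran from 0.00933 to 0.298 for Myl7, from 0.00925 to 0.303 for Myl4 and from 0.0383 to 0.325 for Nppb. All 3 also passed with array weights and with the filter at a mean of 6. Without expressing replicate 2, the highest array for both light chains, Myl7 and Myl4 passed with differences of 2.97 and 3.02. Nppa, the gene of atrial natriuretic peptide and also named after its values were seen, differed by 1.02 (SE 0.72, adjusted p 0.588) with overlap, at 10.74 in non-expressing replicate 1 and 8.39 in both replicates 2 and 3. Single arrays left out moved it between 0.48 and 1.80.

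The targets of SRF and myocardin also ran in both directions. The RNA level of Srf differed by 0.04, and the activity of SRF was not measured. All 26 were measured and none passed, with 16 higher, 10 lower and a median of 0.04. Acta1, the skeletal actin gene and a classical SRF target, read 10.89, 11.28 and 10.88 with PR-M and 12.86, 12.79 and 11.69 without it. It did not overlap and differed by -1.43 (SE 0.29, adjusted p 0.184). Over 16 alternatives the difference ran from -1.81 to -1.16 and the adjusted p from 0.0469 to 0.442, and it passed in 1 of them, without non-expressing replicate 3. Actg1, a cytoplasmic actin gene, ran the other way at 11.82, 11.76 and 11.88 against 11.55, 11.49 and 11.37, a difference of 0.35 (SE 0.08, adjusted p 0.187).

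**Figure D4:**
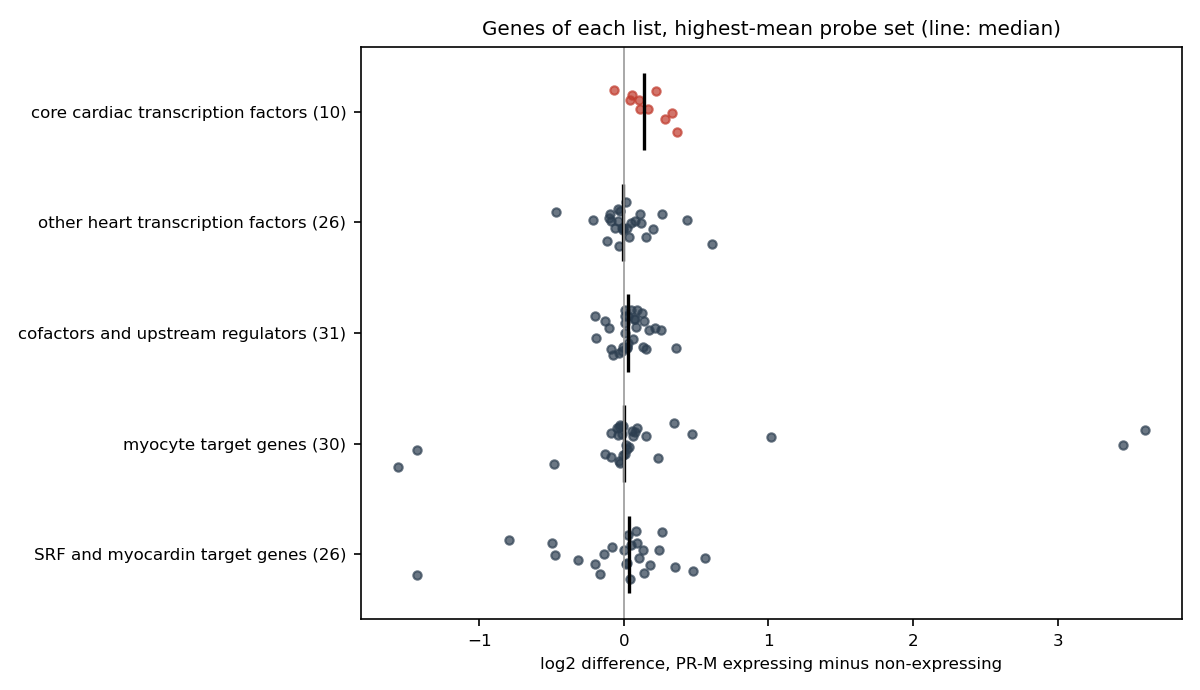
Log2 difference (horizontal axis, PR-M expressing minus non-expressing, 3 arrays each) of each measured gene in 5 lists, by its highest-mean probe set, with the list median as a line and points spread vertically only to part them. The 10 factors lie between -0.07 and 0.37, while myocyte target genes reach from -1.56 to 3.60 around a median of 0.00.

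Markers of the cell types in the tissue were read on the same arrays. The tissue read as heart muscle on all arrays: none of the 10 cardiomyocyte markers passed, 7 were higher and 3 lower with a median of 0.01, and Tnnt2 lay between 14.25 and 14.41. Ryr2, the cardiomyocyte marker with the lowest p, differed by 0.35 (SE 0.22, limma over genes, adjusted p 0.549) with overlap. Summed on the linear scale over each gene's highest-mean probe set, the cardiomyocyte markers lay at 151086 to 156113 with PR-M and 148954 to 156109 in the non-expressing arrays. Several of these markers lay near 14.77, the highest value on any array, so alike sums cannot show an alike share of muscle cells. Skeletal muscle markers were low in both groups, with mean log2 values of 4.61 to 4.89. No marker was listed at 0.

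Fibroblast markers were mostly higher in the expressing group. Of the 10 markers 9 were higher, none passed, the median was 0.21, and their sum lay at 26222 to 29335 with PR-M and 22395 to 24853 in the non-expressing arrays, without overlap. Postn, a matrix gene of activated fibroblasts, differed by 0.67 (SE 0.17, adjusted p 0.256) and Col3a1, a collagen gene, by 0.28 (SE 0.08, adjusted p 0.290), or 0.47 with its probe sets averaged. Of the 12 atrial markers measured, 8 were higher, 4 were lower and none passed, with a median of 0.49. The largest differences were those of Sln, Myl4 and Myl7, while the 4 lower markers differed by -0.10 to -0.03. The sum of the 12 lay at 4278 to 11207 against 2495 to 3586, with expressing replicate 2 the highest. That array was the highest for 1 of the 10 factors, Myocd, by the probe set of highest mean. Of the 10 endothelial markers 7 were higher and 3 lower, with a median of 0.04 and a sum of 6612 to 6833 against 6226 to 6649. In the fit over genes, none of the genes of any marker list passed. Sln, the atrial gene of sarcolipin, had the largest difference of the listed genes, 3.89 (SE 0.48, adjusted p 0.0693), and passed in 4 of 16 alternatives, with an adjusted p from 5.21e-04 to 0.303. Myl7 and Myl4, also atrial markers, passed in 5 and 4 of them. A second, dimmer probe set of Sln differed by 0.14 (SE 0.08, limma over probe sets, adjusted p 0.522). The 7 ventricular markers had a sum of 68588 to 70957 against 71997 to 72357 and the 9 leukocyte markers one of 2836 to 3181 against 2739 to 3345. The part of these cell types in the values of the factors was not tested.

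**Figure D5:**
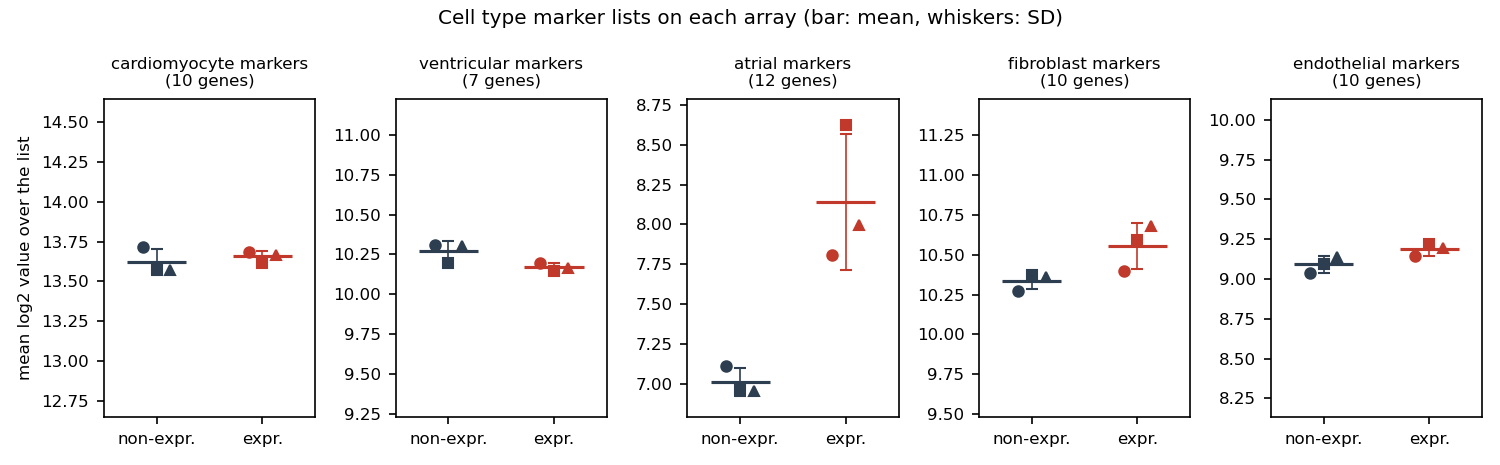
Mean log2 value over the genes of 5 marker lists on each array (vertical axis, the same span of 2 in every panel), with 1 symbol shape for each replicate number, group means as bars and SD as whiskers (n = 3 each). Cardiomyocyte means are alike in both groups, fibroblast means are higher in the expressing arrays, and atrial means differ most, from 7.81 to 8.62 against 6.95 to 7.11. The atrial mean joins 8 higher and 4 lower genes, with the largest differences in Sln, Myl4 and Myl7.

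Controls of RNA and labelling quality also stood apart between the groups. Controls for 18S ribosomal RNA read 8.31 ± 0.22 with PR-M and 9.88 ± 0.38 without it. The beta-actin control, as its 3′ probe set minus its 5′ one, gave 1.23 ± 0.05 and 1.38 ± 0.07 (SD, n = 3 each). Neither overlapped, and both had a two-sided exact permutation p = 0.1, which no 3 against 3 comparison can go below. The Gapdh control, formed the same way, gave 0.17 ± 0.06 with PR-M and 0.25 ± 0.07 without it; its groups overlapped, at a two-sided exact permutation p = 0.3. The part of these controls in the values of the factors was not tested. Probe sets for Pgr, the animals' own progesterone receptor gene, lay between 3.14 and 4.70. They are not designed for the human transgene, so the group labels were not checked here.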

How the data were processed

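RNA on 6 Affymetrix mouse expression arrays was compared. The values are the log2 expression values the authors deposited, 1 per probe set and array; their scale was inferred from a span of 2.09 to 14.8. RMA and Partek 6.6 are named, per the submitters' processing notes, without settings. The array medians lay between 5.78 and 5.79, so a change shared by all genes cannot show. Of 45101 rows, 64 control probe sets were left out of the tests; 34945 of the other 45037 have 1 gene symbol, 932 several and 9160 none.

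The groups were compared with limma 3.58.1 in R 4.3.3 (lmFit, eBayes, two-sided, Benjamini-Hochberg). The prior had 4.48 degrees of freedom over probe sets and 3.83 over 18193 genes, beside 4 residual ones. SE is moderated. On simulated data of this comparison (3 simulations of 45037 probe sets, each with 200 changed) the fit called 29.9% of changes of 0.5, 84.1% of changes of 1 and 99.0% of changes of 2. Small changes can thus be missed, and the number of arrays limits the precision. The simulated noise was independent and normal, each change was the same on every expressing array, and no change under 0.5 was simulated. In the data, differences of 3.45 for Myl7 and 3.60 for Myl4 did not pass, so these shares may be too high. Alternatives were a filter at a mean of 6, median and cyclic loess scaling, an intensity trend with robust prior, weights for arrays, a random block for the prefix of the sample titles (statmod 1.5.0), ordinary statistics, dropping the suffixes _x_at and _s_at, the mean of a gene's probe sets, and each array left out. Lists were described by counts and medians, without set tests. The factors and lists were chosen with earlier results of these data known. All probe sets of the factors are accounted for. Of each further list the 2 genes with the lowest p were eligible for naming, and other names are said to be chosen after seeing values. List genes with no probe set of that single symbol were not analysed here. The test of probe set pairs and the prior taken from the fit over all probe sets were chosen after seeing the data. RNA controls were compared by exact permutation, and promoter motifs were counted in RefSeq sequence.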

Additional observations from a re-analysis of the deposited data

How the results depend on the processing

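None of the 10 factors passed in the fit over genes under any of its 16 alternatives, nor did any of their probe sets under the 13 or 14 that could be run on each, and the lowest adjusted p was 0.114 (limma). The sign was the same throughout for 21 of the 30 probe sets; the other 9 had differences of at most 0.06 in size. No paired analysis was possible because the labels give the groups no shared replicate numbers. With 3 against 3 arrays, their number limits the precision. The counts over the whole array moved. Probe sets past the threshold numbered 6, and 35 with the filter at a mean of 6, 37 with the intensity trend, 43 with weights for arrays, 2 with ordinary statistics and 0 to 44 with single arrays left out (0 without expressing replicate 3, 44 without non-expressing replicate 1). Genes past it numbered 4, and in the same order 19, 17, 26, 1 and 0 to 11, with 2 once _x_at and _s_at probe sets were dropped, 1 with a gene's probe sets averaged and 12 with the prior of the fit over all probe sets. The cause was not tested. The median difference of the factors, 0.14, was 0.04 with probe sets averaged and between 0.12 and 0.19 with single arrays left out; that of all genes stayed between -0.02 and -0.0021.

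With weights for arrays the Mef2a probe set 1421252_a_at differed by -0.00253 and the Srf probe set 1418255_s_at by -0.0223. Averaged over its probe sets, Gata4 differed by -0.0483. With single arrays left out, the range included 0 for 1425158_at of Tbx20 (-0.0931 to 0.101), 1422219_a_at of Tbx20 (-0.214 to 0.123), 1422221_at of Hand2 (-0.0173 to 0.0619), 1421252_a_at (-0.0354 to 0.129), 1442623_at (-0.152 to 0.0790) and 1425426_a_at (-0.112 to 0.0473) of Mef2a, 1421027_a_at of Mef2c (-0.00751 to 0.0767), and 1418255_s_at (-0.0427 to 0.102) and 1418256_at (-0.0164 to 0.0845) of Srf. The same held for Hdac9 (-0.186 to 0.00154), Cd14, a leukocyte marker (-0.335 to 0.00443), and Mal, a Schwann cell marker (-0.595 to 0.0450). Why these signs change was not tested.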
